A study of Mus musculus with 2 samples.

Results

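Interleukin-1 (IL-1) ligands, their receptors and the inflammasome that matures IL-1β were followed through the immune cells of an osteosarcoma grown in mice. The genes were chosen by symbol, with earlier results of these data known. They are the ligands Il1a and Il1b, the antagonist Il1rn, the receptor genes Il1r1, Il1r2 and Il1rap, and the inflammasome genes Nlrp3 and Casp1, which make 8 of the 32285 mouse genes counted. The tumors were made from 143B, a human osteosarcoma cell line, placed under the skin of the right flank of female nude mice at 4 weeks of age. Nude mice lack a thymus and with it nearly all T cells, while their myeloid cells and NK cells are kept. Mice received 4 injections, 3 days apart, of 10 mg/kg control IgG (a human IgG1 isotype antibody) or of 10 mg/kg anti-CD3L1 antibody. Immune cells were taken from the tumors with magnetic beads against CD45, a surface protein of white blood cells, and each group gave 1 droplet library from a set of 3 tumors. The tumor of origin of a cell is not recorded, so each group was 1 sample and no p-value was computed.

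IL-1α and IL-1β are cytokines that act on the same signaling receptor, the product of Il1r1, which needs the accessory protein encoded by Il1rap to pass the signal on. The pathway is held back at several points. Il1rn encodes the IL-1 receptor antagonist, which occupies the receptor without a signal, and Il1r2 encodes a decoy receptor that binds the ligand and has no signaling domain. IL-1β is made as an inactive precursor and is cut by caspase-1 (Casp1), which is switched on in the inflammasome, a complex built by sensors such as NLRP3. Neutrophils, monocytes and macrophages are the usual sources of IL-1β in inflamed and tumor tissue. RNA levels do not report the cleavage or release of the protein.

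Levels are given as CPM, the unique molecular identifiers (UMIs, 1 per captured RNA molecule) of a gene summed over the cells of a class, per 1000000 UMIs of all genes in that class. Their intervals are exact Poisson intervals at 95%. Ratios between the libraries are log2 of CPM in anti-CD3L1 over CPM in control IgG with exact binomial 95% intervals, so that a negative value is a lower level in anti-CD3L1. All intervals cover counting error only and not the spread between tumors. After filtering, 8557 cells of the control IgG library (median 5526 UMIs) and 11269 cells of the anti-CD3L1 library (median 8267 UMIs) were used, and 26 barcodes occurred in both. Cells were put into classes by fixed marker lists, and each class name below means cells that looked like that type by their markers. There were 5617 neutrophils in control IgG and 503 in anti-CD3L1, 1382 and 3370 monocytes, 459 and 3307 macrophages, 45 and 545 conventional dendritic cells, 22 and 175 plasmacytoid dendritic cells, 137 and 832 NK cells, and 47 and 264 innate lymphoid cells. Each of these classes had 1 to 8 of its own markers, and 0 of another class, among its 10 leading genes. The classes were made from these same marker lists, so this count is not a separate check of their names. The innate lymphoid class was mixed: 22 of its 47 and 117 of its 264 cells lay in the innate lymphoid cluster of the clustering described further on. In control IgG 9 of them lay in a monocyte cluster. In anti-CD3L1 70 lay in the NK cluster, 21 in a monocyte cluster led by Ly6i and 20 in the macrophage cluster. A further 258 and 1043 cells passed more than 1 gate and 574 and 1102 cells passed none, and these were left out of the classes. The 503 neutrophils of the anti-CD3L1 library were shallow, with a median of 2346 UMIs against 4621 in control IgG, and their summed neutrophil markers were 86026 CPM against 177404 CPM. Beside this, the median of the 4182 genes measured in neutrophils was 0.50 log2 units higher in anti-CD3L1, so ratios in neutrophils are also given relative to that median (median-of-ratios scaling). The same median was 0.12 in monocytes, -0.01 in macrophages and 0.03 in conventional dendritic cells.

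Il1b, the gene of IL-1β, was read most in neutrophils, and its level was lower in the anti-CD3L1 library in neutrophils, monocytes and macrophages. In neutrophils it stood at 9909 CPM (9876 to 9943) in control IgG and 5611 CPM (5499 to 5724) in anti-CD3L1. The log2 ratio was -0.82 (-0.85 to -0.79), and -1.32 relative to the median gene. In monocytes the levels were 4935 CPM (4902 to 4968) and 2599 CPM (2580 to 2617), and the log2 ratio was -0.93 (-0.94 to -0.91). In macrophages they were 1710 CPM (1678 to 1741) and 1132 CPM (1121 to 1144), and the log2 ratio was -0.59 (-0.62 to -0.56). The order of neutrophils above monocytes above macrophages held in each library with intervals that did not overlap. Conventional dendritic cells had 1031 CPM (958 to 1108) in control IgG and 896 CPM (873 to 919) in anti-CD3L1, but their subtypes did not all go one way. Type 1 cells had 475 CPM (15 cells) and 917 CPM (174 cells). Type 2 cells had 1806 CPM (16 cells) and 1013 CPM (212 cells), and mature cells 991 CPM (11 cells) and 760 CPM (123 cells). Innate lymphoid cells had 1217 CPM (1114 to 1326) and 669 CPM (633 to 707), where the tenth of cells with most Il1b held 87.2% and 85.1% of its UMIs. Plasmacytoid dendritic cells had 129 CPM and 486 CPM, with 95.9% of the anti-CD3L1 UMIs in the tenth of cells that held most. The lowest levels were in NK cells, 90.9 CPM (77.1 to 107) and 84.8 CPM (78.6 to 91.5), where the log2 ratio of -0.10 had an interval of -0.35 to 0.16 that includes 0.

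NK cells, which are not known as a source of IL-1β, were read as a rough guide to the level that RNA of other cells can leave in a droplet. Barcodes of 10 to 100 UMIs, which hold free RNA rather than cells, had Il1b at 4725 CPM (4653 to 4797) in control IgG and 1521 CPM (1486 to 1557) in anti-CD3L1. The summed neutrophil markers in monocytes were 2.71% of their level in neutrophils in control IgG and 0.571% in anti-CD3L1. At the neutrophils' own ratio, those shares go with 269 CPM and 32.0 CPM of Il1b, against the 4935 CPM and 2599 CPM read. Macrophage markers also moved, from 455 to 1629 CPM summed over 10 markers in the neutrophil class and from 1747 to 4223 CPM in the monocyte class, against 21146 and 26574 CPM in macrophages, and their part in the lower Il1b of these classes was not tested. In macrophages the shares of the neutrophil markers were 1.06% and 0.237%, which go with 105 CPM and 13.3 CPM. In NK cells of control IgG the share of 1.09% goes with 108 CPM, next to the 90.9 CPM read. In anti-CD3L1 NK cells the share of 0.097% goes with 5.45 CPM, against the 84.8 CPM read, and 86.5% of those UMIs lay in the tenth of cells that held most. Neutrophil markers were thus higher in monocytes, macrophages and NK cells of control IgG than of anti-CD3L1. The part of free RNA, from neutrophils or from other cells, in the Il1b differences was not tested.

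**Figure D1:**
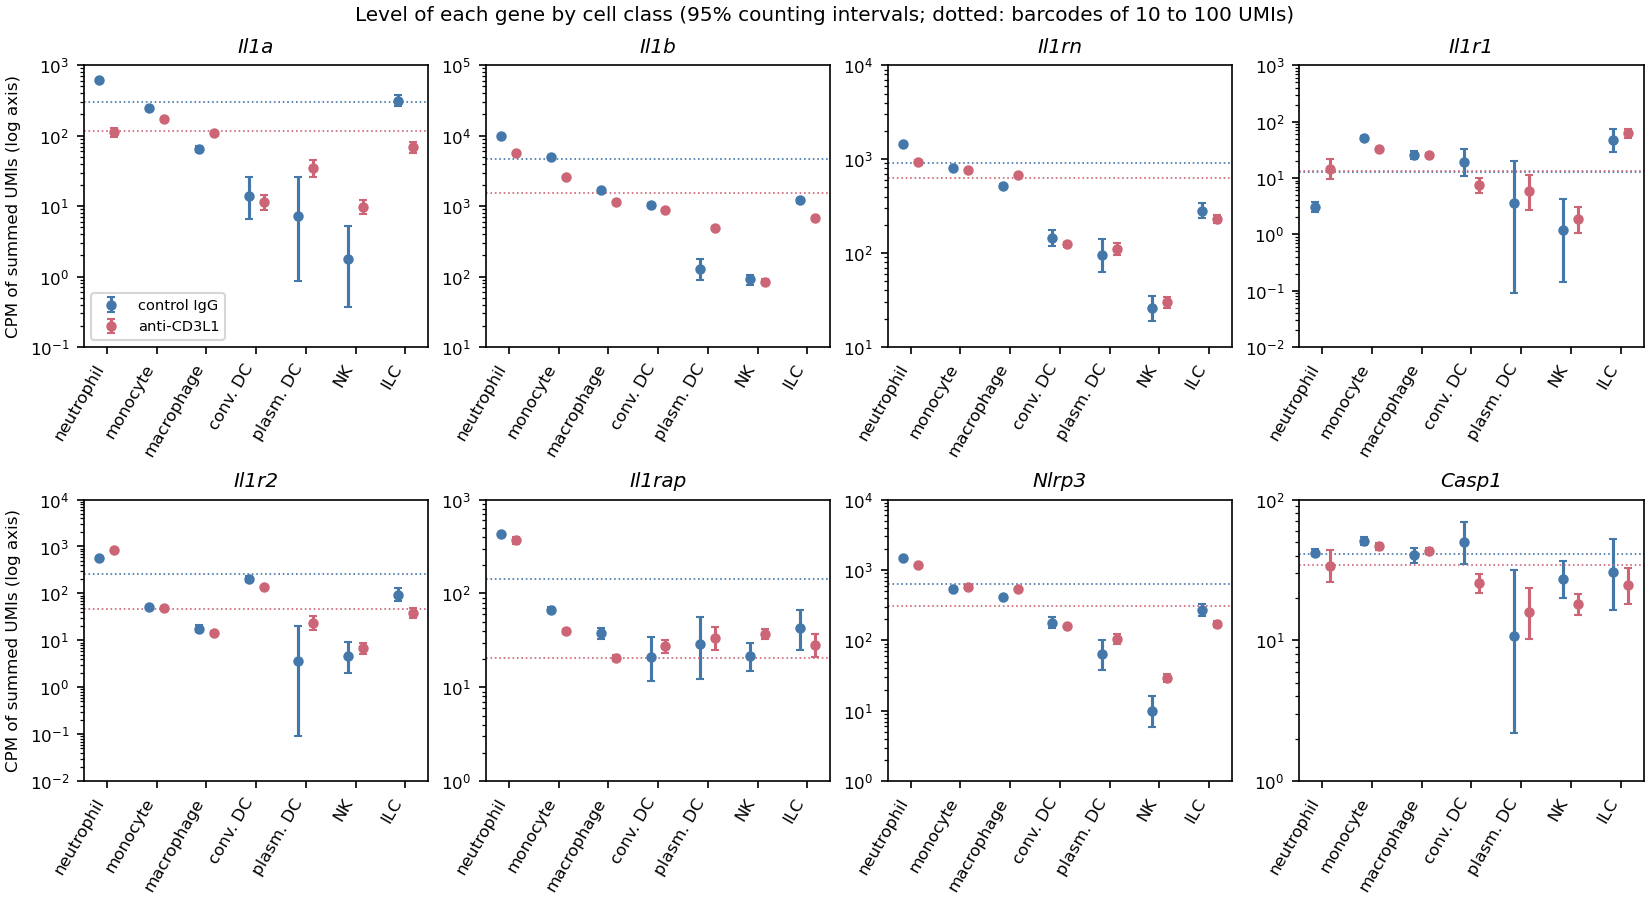
CPM of summed UMIs (log axis) of each of the 8 genes by cell class, with 95% counting intervals, in control IgG (blue) and anti-CD3L1 (red), and dotted lines at the level in barcodes of 10 to 100 UMIs of each library. Il1b runs from 9909 CPM in control IgG neutrophils to 84.8 CPM in anti-CD3L1 NK cells, while Il1r1 in control IgG is at 3.04 CPM in neutrophils and 52.1 CPM in monocytes.

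Il1a, the gene of IL-1α, was lower in anti-CD3L1 in neutrophils and in the monocyte class and higher in macrophages, and the monocyte clusters described further on did not all go one way. Neutrophils had 616 CPM (607 to 624) in control IgG and 112 CPM (96.7 to 129) in anti-CD3L1, and the log2 ratio was -2.46 (-2.67 to -2.25). In monocytes the levels were 251 CPM (244 to 259) and 173 CPM (168 to 178), and the log2 ratio was -0.54 (-0.60 to -0.48). Macrophages went the other way, with 64.4 CPM (58.4 to 70.8) in control IgG and 108 CPM (104 to 111) in anti-CD3L1, and the log2 ratio was 0.74 (0.60 to 0.89). The UMIs of Il1a were also held by few cells. In control IgG neutrophils the tenth of cells with most Il1a held 65.7% of its UMIs, while for Il1b that figure was 32.9%. In NK cells Il1a was at 1.78 CPM (0.368 to 5.21) and 9.66 CPM (7.63 to 12.1), and in conventional dendritic cells it was at 13.9 CPM and 11.4 CPM. Innate lymphoid cells had 316 CPM in control IgG, but 97.8% of these 134 UMIs lay in the tenth of the 47 cells that held most.

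Il1rn, the gene of the receptor antagonist, differed less between the libraries than Il1b in monocytes and was higher in anti-CD3L1 macrophages. In neutrophils it was 1443 CPM (1430 to 1456) in control IgG and 933 CPM (887 to 980) in anti-CD3L1, and the log2 ratio was -0.63 (-0.70 to -0.56). In monocytes the levels were 800.0 CPM (787 to 813) and 759.6 CPM (749.6 to 769.85), and the log2 ratio was -0.075 (-0.11 to -0.044). In macrophages Il1rn was higher in anti-CD3L1, 674 CPM (666 to 683) against 521 CPM (503 to 538), and the log2 ratio was 0.37 (0.32 to 0.42). Counted as UMIs per cell without regard to depth, this macrophage difference turned to -0.11, since the anti-CD3L1 macrophages were shallower (median 10072 UMIs against 14298). In NK cells the counting intervals of the level ran from 19.0 to 35.1 CPM and from 26.3 to 34.1 CPM.

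The number of Il1b UMIs for each Il1rn UMI, which does not depend on scaling, set these genes against each other. It was 6.87 (6.80 to 6.93) in control IgG neutrophils and 6.02 (5.70 to 6.35) in anti-CD3L1 neutrophils. In monocytes it was 6.17 (6.06 to 6.28) and 3.42 (3.37 to 3.47), and in macrophages 3.28 (3.16 to 3.41) and 1.68 (1.65 to 1.71). In conventional dendritic cells it was 7.13 (5.80 to 8.83) and 7.25 (6.73 to 7.81), and these intervals overlapped. Their subtypes, with 11 to 16 control IgG cells each, were not alike. Il1b and Il1rn had log2 ratios of 0.95 and -1.04 in type 1 cells, -0.83 and -0.68 in type 2 cells and -0.38 and 0.98 in mature cells. The ratio of the ligand to its antagonist was thus lower in anti-CD3L1 monocytes and macrophages beyond counting error, with a smaller difference in neutrophils. The monocyte clusters described further on differed in this. Il1b and Il1rn had log2 ratios of -0.15 and -0.11 in the cluster led by Vcan and -0.51 and 0.097 in that led by Ly6i. They had -0.69 and 0.235 in that led by Lyl1 and -1.64 and -0.12 in that led by Ifit1bl1. The parts of the cluster mix and of free RNA in the class values were not tested. Both genes are counted at their 3′ ends by this method, and the value compares classes and libraries, not the amounts of the 2 RNAs.

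The ligand genes lie apart from their antagonist but next to each other. The submitters' notes name GRCm39 for the counts, and the positions here are of GRCm38 (GENCODE M21), in which all 8 gene identifiers were found. In it, Il1a (ENSMUSG00000027399) is at chr2:129299610-129309972 and Il1b (ENSMUSG00000027398) at chr2:129364570-129371139, both on the minus strand, while Il1rn (ENSMUSG00000026981) is at chr2:24336853-24351494 on the plus strand. The decoy receptor gene Il1r2 (ENSMUSG00000026073) is at chr1:40074079-40125231 and Il1r1 (ENSMUSG00000026072) at chr1:40225080-40317257, both on the plus strand. Il1rap (ENSMUSG00000022514) is at chr16:26581704-26730117, Nlrp3 (ENSMUSG00000032691) at chr11:59541568-59566956 and Casp1 (ENSMUSG00000025888) at chr9:5298517-5307265, all on the plus strand. All 8 are protein coding. Antisense or other opposite-strand genes overlap Il1a, Il1b, Il1r2 and Il1rap, and the 4 such genes held 66 to 1309 UMIs over both libraries, against 454987 and 156140 UMIs for Il1b itself in the cells of the libraries.

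To show what stands before the starts of the neighboring ligand genes, the 250 bases upstream of the RefSeq start (GRCm38.p6) are printed for Il1a and Il1b. Those of Il1r2, whose CPM was highest in neutrophils and conventional dendritic cells, are printed with them. They read 5′ to 3′ on the strand of the gene, at chr2:129309973-129310222 (minus) for Il1a, chr2:129371140-129371389 (minus) for Il1b and chr1:40085843-40086092 (plus) for Il1r2, whose RefSeq start lies inside the longer GENCODE gene. Capitals mark matches on either strand, where N is any base. The core promoter element that positions the start was searched as TATAAA. The AP-1 motif, which is bound by Fos and Jun proteins, was searched as TGANTCA. The motif of the myeloid factor PU.1 was searched as GAGGAA, that of the C/EBP family as TTNCNNAA, and the NF-κB motif was searched as well.
Il1a: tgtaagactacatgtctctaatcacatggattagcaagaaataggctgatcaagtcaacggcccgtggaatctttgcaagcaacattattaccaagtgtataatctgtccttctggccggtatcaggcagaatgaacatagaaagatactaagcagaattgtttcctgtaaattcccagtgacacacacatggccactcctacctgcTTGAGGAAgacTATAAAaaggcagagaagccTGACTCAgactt
Il1b: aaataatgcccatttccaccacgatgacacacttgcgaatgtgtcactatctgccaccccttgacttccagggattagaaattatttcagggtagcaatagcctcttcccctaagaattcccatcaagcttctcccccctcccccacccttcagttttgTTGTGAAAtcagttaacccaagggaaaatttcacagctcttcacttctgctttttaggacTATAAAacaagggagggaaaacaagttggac
Il1r2: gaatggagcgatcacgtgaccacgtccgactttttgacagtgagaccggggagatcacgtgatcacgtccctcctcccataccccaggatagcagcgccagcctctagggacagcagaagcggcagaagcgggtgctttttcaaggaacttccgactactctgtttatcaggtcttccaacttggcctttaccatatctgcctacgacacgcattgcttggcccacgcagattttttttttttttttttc
Il1a held TATAAA at 32 to 27 bases before the start, TGANTCA at 12 to 6 bases, and GAGGAA at 41 to 36 bases, the last within a reverse match to TTNCNNAA at 43 to 36 bases. Il1b held TATAAA at 31 to 26 bases and a reverse match to TTNCNNAA at 91 to 84 bases. Il1r2 held none of the 5 in this window. Over the upstream windows of all 32851 RefSeq starts, TATAAA was found in 12.37%, TGANTCA in 6.75%, GAGGAA in 23.25%, TTNCNNAA in 36.85% and the NF-κB motif in 4.11%. A match describes the letters and does not show that a factor binds.

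The receptor genes were split between cell classes. Il1r2, the decoy receptor, was high in neutrophils, with 578 CPM (570.0 to 586) in control IgG and 832 CPM (789 to 876) in anti-CD3L1, and the log2 ratio was 0.53 (0.45 to 0.60). Relative to the median gene in the same cells it was 0.029, and in UMIs per cell the direction turned, to -0.29. Conventional dendritic cells had 205 CPM (173 to 240) and 136 CPM (127 to 145), and the log2 ratio was -0.59 (-0.84 to -0.33). Within them, type 2 cells had 424 CPM (16 cells) and 216 CPM (212 cells), mature cells 153 CPM (11 cells) and 78.2 CPM (123 cells), and type 1 cells 44.5 CPM (15 cells) and 96.6 CPM (174 cells). Monocytes, at 50.4 CPM (47.2 to 53.9) and 48.2 CPM (45.7 to 50.9), and macrophages, at 17.9 CPM and 14.7 CPM, held little Il1r2. NK cells had 4.75 CPM and 6.78 CPM.

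Il1r1, the signaling receptor, was nearly absent where the decoy was highest. Neutrophils had 102 Il1r1 UMIs in 5617 control IgG cells and 25 UMIs in 503 anti-CD3L1 cells, or 3.04 CPM (2.48 to 3.69) and 14.7 CPM (9.49 to 21.6). Barcodes of 10 to 100 UMIs had 12.8 CPM and 13.2 CPM, so the neutrophil values did not exceed the level of free RNA beyond counting error. Monocytes had 52.1 CPM (48.8 to 55.6) in control IgG and 32.3 CPM (30.3 to 34.5) in anti-CD3L1, and the log2 ratio was -0.69 (-0.82 to -0.55). Macrophages had 25.6 CPM and 25.5 CPM, and the interval of the log2 ratio was -0.24 to 0.24. Of the control IgG macrophages 122 of 459 lay in a monocyte cluster led by Vcan, and inside the cluster led by C1q genes Il1r1 was at 16.0 CPM and 25.6 CPM, with a log2 ratio of 0.68 (0.30 to 1.07). Innate lymphoid cells had 47.2 CPM (28.8 to 72.8) and 62.5 CPM (51.7 to 74.9), the highest level of Il1r1 in the anti-CD3L1 library, although the tenth of cells with most held 96.6% of the UMIs there. In NK cells it was 1.19 CPM and 1.88 CPM.

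Il1rap, the accessory chain, was highest in neutrophils, as the decoy was. Neutrophils had 432 CPM (425 to 439) and 368 CPM (339 to 398). The log2 ratio was -0.23 (-0.35 to -0.12), and -0.73 relative to the median gene. Monocytes had 67.4 CPM (63.6 to 71.3) in control IgG and 39.7 CPM (37.4 to 42.1) in anti-CD3L1, and the log2 ratio was -0.76 (-0.88 to -0.64). Macrophages had 37.5 CPM (33.0 to 42.4) and 20.6 CPM (19.1 to 22.2), and the log2 ratio was -0.86 (-1.07 to -0.65). NK cells were higher in anti-CD3L1, at 21.4 CPM (15.0 to 29.6) and 36.9 CPM (32.8 to 41.4), and the log2 ratio was 0.79 (0.28 to 1.33). Conventional dendritic cells had 20.9 CPM and 27.3 CPM and plasmacytoid dendritic cells 28.6 CPM and 33.7 CPM, with intervals of the log2 ratio that included 0. Barcodes of 10 to 100 UMIs had 142 CPM of Il1rap in control IgG and 20.6 CPM in anti-CD3L1, and the neutrophil markers in control IgG monocytes go with 11.7 CPM. The part of free RNA in the monocyte and macrophage differences was not tested.

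Over the whole class, the inflammasome genes differed less between the libraries than Il1b in neutrophils and monocytes. Nlrp3, the sensor, stood at 1460 CPM (1447 to 1473) in control IgG neutrophils and 1166 CPM (1115 to 1218) in anti-CD3L1 neutrophils. The log2 ratio was -0.32 (-0.39 to -0.26), and -0.82 relative to the median gene. Monocytes had 543 CPM (532 to 554) and 571 CPM (562 to 580), with a log2 ratio of 0.073 (0.036 to 0.11) that turned to -0.047 relative to the median gene and to -0.52 in UMIs per cell. The monocyte clusters described further on went both ways. Nlrp3 had log2 ratios of 0.585 in the cluster led by Vcan and 0.137 in that led by Ly6i, but -0.384 in that led by Lyl1 and -0.234 in that led by Ifit1bl1. In macrophages it was higher in anti-CD3L1, 543 CPM (535 to 551) against 414 CPM (398 to 429), and the log2 ratio was 0.39 (0.33 to 0.45), and -0.087 in UMIs per cell. Conventional dendritic cells held 178 CPM and 158 CPM, and NK cells 10.1 CPM and 29.5 CPM. Casp1, the protease, was similar in the 3 main myeloid classes, from 42.0 CPM and 34.0 CPM in neutrophils through 50.6 CPM and 46.5 CPM in monocytes to 40.2 CPM and 43.3 CPM in macrophages. By CPM the intervals of its log2 ratio included 0 in all 3 classes, at -0.71 to 0.074, -0.24 to 0.0038 and -0.082 to 0.30. In neutrophils the log2 ratio of Casp1 was -0.80 relative to the median gene and -1.12 in UMIs per cell. NK cells had 27.3 CPM (20.01 to 36.5) and 18.1 CPM (15.2 to 21.3). In conventional dendritic cells it was 50.1 CPM (35.1 to 69.4, 36 UMIs) and 25.3 CPM (21.6 to 29.5), and the log2 ratio was -0.98 (-1.51 to -0.42). Levels of Casp1 in barcodes of 10 to 100 UMIs, 41.1 CPM and 34.3 CPM, were close to those in neutrophils.

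**Figure D2:**
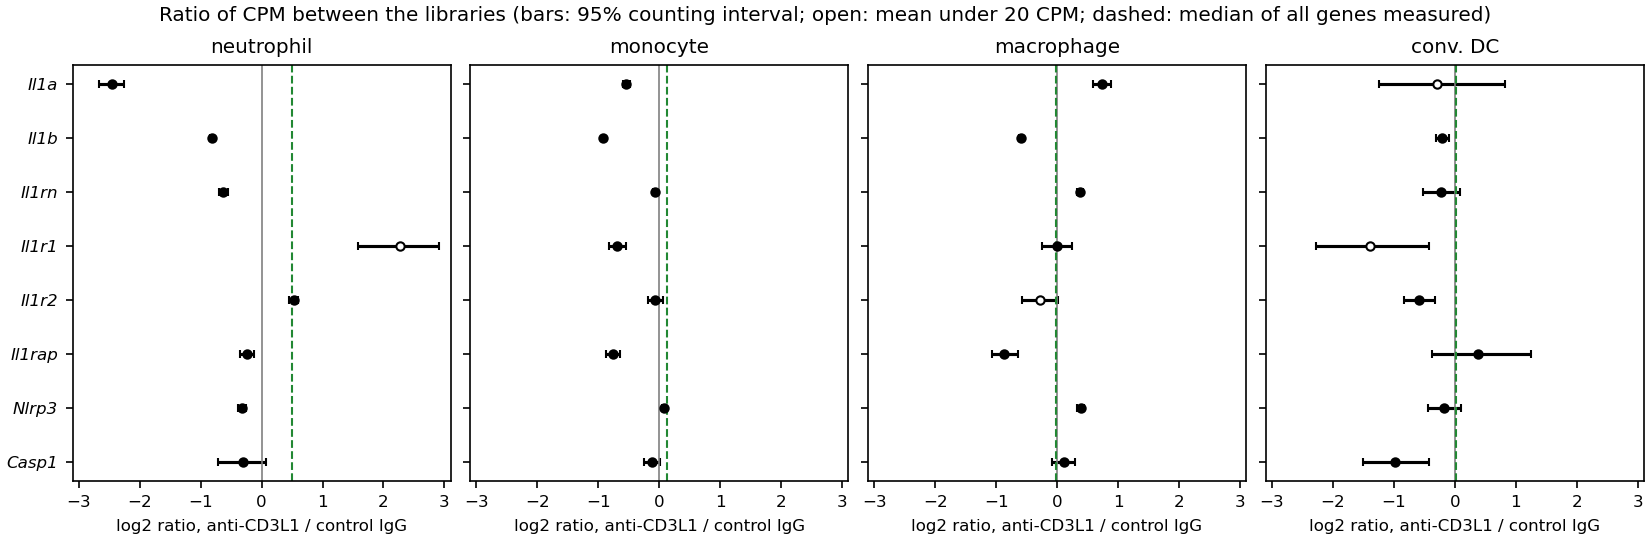
Log2 ratio of CPM in anti-CD3L1 over control IgG for each gene in 4 classes, with 95% counting intervals, open points for genes under a mean of 20 CPM, a grey line at 0 and a dashed line at the median of all genes measured in the class. Il1b lies left of 0 in all 4 classes, at -0.82, -0.93, -0.59 and -0.20, and Il1a runs from -2.46 in neutrophils to 0.74 in macrophages.

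The median ratio of the measured IL-1 genes lay below that of all genes in neutrophils, monocytes and conventional dendritic cells, and above it in macrophages. A gene was counted as measured in a class at a mean of at least 20 CPM over the libraries, and as past the limit at a ratio of at least 2-fold. In neutrophils 2.99% of 4182 genes were at least 2-fold lower in anti-CD3L1 and 21.2% at least 2-fold higher. Of the 7 IL-1 genes measured there, Il1a was at least 2-fold lower and 0 were at least 2-fold higher. With median-of-ratios scaling 286 genes were lower (6.84%) and 340 higher, in place of 125 and 888, and Il1a, Il1b and Il1rn were then at least 2-fold lower, at -2.96, -1.32 and -1.13. In monocytes 1.95% of 5436 genes were lower and 3.0% higher, and 0 of 8 IL-1 genes passed in either direction. With median-of-ratios scaling 2.63% were lower there, Il1b among them at -1.05. In macrophages 1.67% of 5637 genes were lower and 1.74% higher, and in conventional dendritic cells 2.65% and 2.21% of 5696 genes, with 0 of 7 and 0 of 6 IL-1 genes past the limit. The median log2 ratio of the measured IL-1 genes was -0.32 in neutrophils, -0.33 in monocytes, 0.11 in macrophages and -0.22 in conventional dendritic cells, beside medians over all genes of 0.50, 0.12, -0.01 and 0.03.

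The libraries held different states of the same class, so levels were also compared inside clusters made without the IL-1 genes. In neutrophils, a cluster led by Cxcr2 and Retnlg (4394 and 300 cells of the gate) had 10350 CPM of Il1b in control IgG and 7547 CPM in anti-CD3L1, and the log2 ratio was -0.46 (-0.49 to -0.42). A cluster led by F3, Nos2 and Ccl3 (1043 and 146 cells) had 10226 CPM and 4703 CPM, and the log2 ratio was -1.12 (-1.20 to -1.05). Il1a was concentrated in this latter cluster in control IgG, at 1750 CPM against 425 CPM in the Cxcr2 cluster, and stood at 101 CPM and 112 CPM in anti-CD3L1. Il1rn behaved likewise in control IgG, at 2624 CPM against 1282 CPM. Il1r2 was the reverse, at 340 CPM in the F3 cluster against 662 CPM in the Cxcr2 cluster. By CPM it was higher in anti-CD3L1 in each, at 892 CPM and 1140 CPM. Median-of-ratios scaling, which took the log2 ratio of Il1r2 in the whole class from 0.53 to 0.029, was not applied within clusters.

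In monocytes 961 of the 1382 control IgG cells lay in a cluster led by Vcan and Thbs1, and 1480 of the 3370 anti-CD3L1 cells in a cluster led by Ly6i and Gprc5a, whose 10 leading genes held 1 innate lymphoid marker, Areg, and 0 monocyte markers. The class difference in Il1b therefore set unlike cells side by side. In the Vcan cluster Il1b was 4838 CPM in control IgG and 4353 CPM in the 133 anti-CD3L1 cells, and the log2 ratio was -0.15 (-0.20 to -0.11). In the Ly6i cluster it was 4796 CPM (76 cells) and 3366 CPM, and the log2 ratio was -0.51 (-0.56 to -0.47). In a cluster led by Lyl1 and Tppp3 it was 2844 CPM (72 cells) and 1762 CPM (633 cells), and the log2 ratio was -0.69 (-0.76 to -0.63). In a cluster led by the interferon-induced genes Ifit1bl1, Cmpk2 and Ifit2 it was 6321 CPM (215 cells) and 2033 CPM (337 cells), and the log2 ratio was -1.64 (-1.68 to -1.59). Il1b was thus lower in anti-CD3L1 in all 4 monocyte clusters compared, by amounts that spanned -0.15 to -1.64. A further 645 anti-CD3L1 and 19 control IgG cells of the monocyte class lay in the C1q macrophage cluster. They were not compared, since at least 50 cells of each library were asked for, but they are part of the class ratio. Il1rn in the same clusters had log2 ratios of -0.11, 0.097, 0.23 and -0.12 in that order. Il1a was 265 and 260 CPM in the Vcan cluster (log2 ratio -0.029, -0.21 to 0.15) and higher in anti-CD3L1 in the Ly6i cluster, 209 and 265 CPM (0.34, 0.13 to 0.56). It was 34.3 and 25.4 CPM in the Lyl1 cluster (-0.43, -1.01 to 0.19) and lower in the Ifit cluster, 289 and 110 CPM (-1.39, -1.59 to -1.19). In the C1q macrophage cluster (275 and 2688 cells) Il1b was 2005 CPM and 1120 CPM, and the log2 ratio was -0.84 (-0.88 to -0.81), and Il1rn was 605 CPM and 710 CPM, and the log2 ratio was 0.23 (0.17 to 0.29).

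Monocytes become macrophages in tissue and gain complement C1q on the way, so both classes, with the cells that passed both of their gates, were placed in 4 bins of summed C1qa, C1qb and C1qc UMIs per 10000. Il1b was lower in each higher bin in both libraries. From no C1q to over 40 per 10000 it went through 4738, 3601, 2597 and 2055 CPM in control IgG and through 2539, 2316, 1713 and 1149 CPM in anti-CD3L1. The anti-CD3L1 level was the lower in every bin. Il1rn was flatter, from 777 to 566 CPM in control IgG and from 724 to 662 CPM in anti-CD3L1, and its highest bin in anti-CD3L1 was 10 to 40 per 10000, at 813 CPM. Il1rap ended at 30.3 CPM and 20.8 CPM in the bin of highest C1q, from 65.8 CPM and 36.5 CPM at no C1q. The bins held 1270, 263, 118 and 254 cells of control IgG and 1892, 1709, 914 and 2525 cells of anti-CD3L1.

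**Figure D3:**
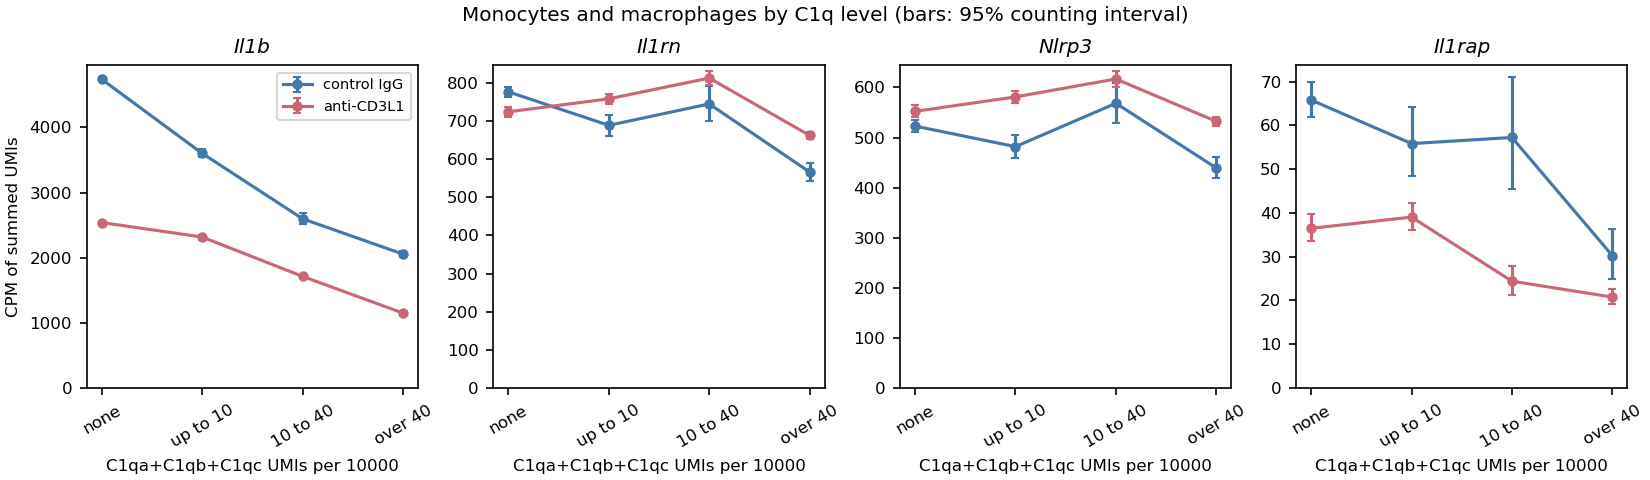
CPM of Il1b, Il1rn, Nlrp3 and Il1rap in monocytes and macrophages by summed C1q UMIs per 10000, with 95% counting intervals, in control IgG (blue) and anti-CD3L1 (red). Il1b steps down from 4738 to 2055 CPM and from 2539 to 1149 CPM. Nlrp3 in anti-CD3L1 lies above control IgG in each bin, with intervals that overlap in the bin of 10 to 40.

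Over single cells, Il1b was broadly present in neutrophils and graded in monocytes and macrophages. After every cell was thinned to 1000 UMIs, 95.5% (94.9 to 96.0) of control IgG neutrophils and 90.4% (87.5 to 92.9) of anti-CD3L1 neutrophils held a UMI of Il1b. In monocytes the shares were 79.2% (77.0 to 81.3) and 62.4% (60.7 to 64.0), and in macrophages 52.3% (47.6 to 57.0) and 41.9% (40.2 to 43.6). In NK cells, at median depths of 11034 and 8612 UMIs before thinning, they were 8.76% (4.61 to 14.8) and 4.09% (2.85 to 5.67). The thinning left out 59 and 12 neutrophils, 2 and 3 monocytes, 2 and 12 macrophages and 0 and 1 NK cells. Without thinning the neutrophil shares were 99.04% and 95.03%. The level in a cell at the middle of its class was 84.1 and 50.8 Il1b UMIs per 10000 in neutrophils, 35.4 and 13.4 in monocytes, and 8.48 and 3.93 in macrophages. Cells with at least 100 Il1b UMIs per 10000 made up 42.2% of control IgG neutrophils and 20.3% of anti-CD3L1 neutrophils, 15.0% and 4.39% of monocytes, and 1.53% and 0.726% of macrophages.

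**Figure D4:**
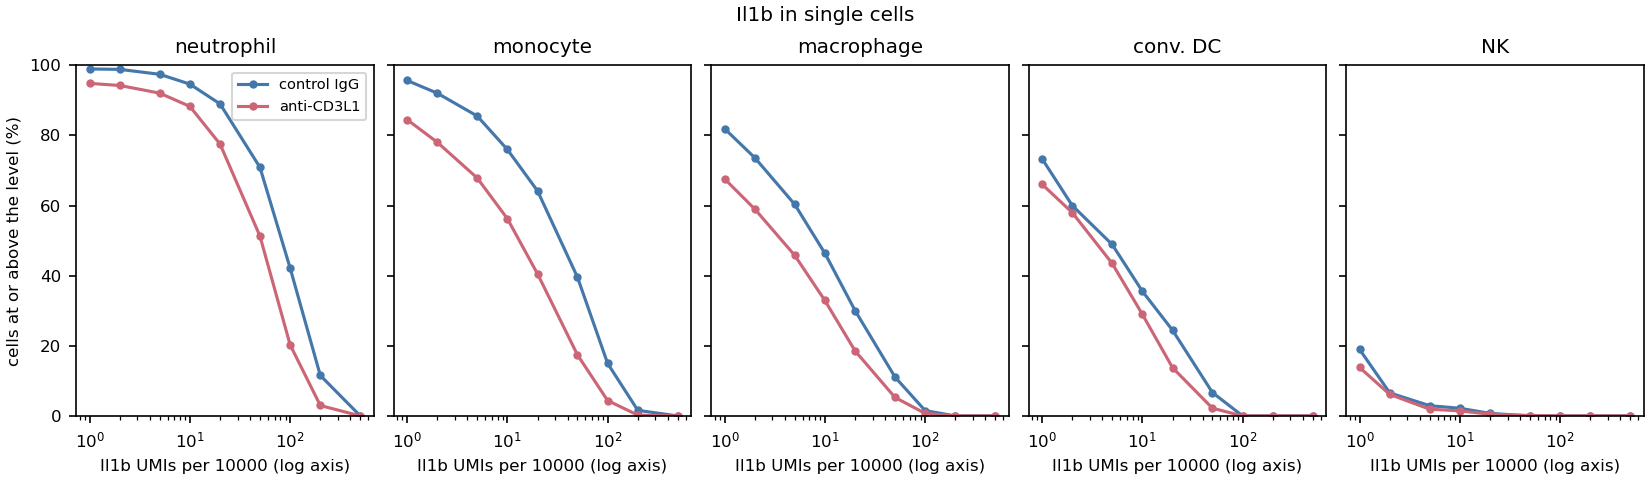
Share of cells (percent) with at least a given number of Il1b UMIs per 10000 (log axis) in 5 classes, for control IgG (blue) and anti-CD3L1 (red). The anti-CD3L1 curve lies below the control IgG curve in neutrophils, monocytes and macrophages, at 20.3% against 42.2% at 100 UMIs per 10000 in neutrophils, and in NK cells both curves are at 2.19% and 1.44% by 10 UMIs per 10000.

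The decoy and the other genes gave shares with the same split. A UMI of Il1r2 was found in 41.1% (39.8 to 42.4) of control IgG and 56.0% (51.5 to 60.5) of anti-CD3L1 neutrophils after thinning, in 9 of 45 and 55 of 541 conventional dendritic cells, and in 0 of 137 and 0.602% of 832 NK cells. The count of 0 allows up to 2.66% at the thinned depth, and without thinning 5.11% and 3.12% of NK cells held a UMI of Il1r2. Il1r1 was found in 0.126% and 0.204% of neutrophils, 5.29% and 3.15% of monocytes and 2.19% and 2.73% of macrophages. Il1rap was found in 31.6% and 31.2% of neutrophils, 5.73% and 3.42% of monocytes and 4.60% and 1.88% of macrophages, against 2.92% and 3.01% of NK cells. In anti-CD3L1 its intervals in monocytes, 2.83 to 4.09%, and macrophages, 1.45 to 2.41%, overlapped that of NK cells, 1.96 to 4.41%. In control IgG the NK interval, 0.801 to 7.31%, held the shares of monocytes and macrophages. Nlrp3 was found in 65.0% and 58.0% of neutrophils and 34.1% and 37.9% of macrophages, and Casp1 in 2.65% to 4.81% of neutrophils, monocytes and macrophages. In anti-CD3L1 its shares of 4.81% (4.11 to 5.59) in monocytes and 4.37% (3.70 to 5.12) in macrophages stood above the 1.93% (1.10 to 3.11) in NK cells, while in control IgG the NK interval, 0.454 to 6.27%, was wide.

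Ligand and antagonist were often read in the same cell. In control IgG neutrophils 63.1% of thinned cells held both Il1b and Il1rn, 32.4% Il1b alone and 2.79% Il1rn alone, and in anti-CD3L1 46.0%, 44.4% and 4.07%. In monocytes both were held by 37.1% and 28.5%, and Il1rn alone by 7.17% and 15.3%. In macrophages both were held by 21.9% and 19.8%, and Il1rn alone by 11.2% in control IgG and 22.3% in anti-CD3L1. Of control IgG neutrophils with and without Il1rn, 95.8% and 94.9% held Il1b. Nearly all neutrophils held Il1b after thinning, 95.5% in control IgG and 90.4% in anti-CD3L1, so these shares had little room to differ. In anti-CD3L1 neutrophils these shares were 91.9% and 89.0%. They were 83.8% and 75.6% in control IgG monocytes and 65.1% and 60.3% in anti-CD3L1 monocytes. In macrophages they were 66.2% and 45.4% in control IgG and 47.0% and 38.2% in anti-CD3L1. Cells with Il1a mostly held Il1b too, 98.2% of them in control IgG neutrophils and 67.3% in anti-CD3L1 macrophages, where cells without Il1a held it in 94.5% and 39.7%. The decoy and the accessory chain were both held by 13.5% and 18.7% of neutrophils. Il1r2 was found in 42.7% of control IgG neutrophils with Il1rap and 40.3% of those without it. In anti-CD3L1 these shares were 60.1% and 54.1%. Il1r1 and Il1rap, the signaling pair, were both held by 1 of 5558 and 1 of 491 neutrophils. In monocytes that pair was found in 9 of 1380 and 3 of 3367 cells. At 1000 UMIs per cell these shares are limited by depth, and cells are not replicates.

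The classes that held the IL-1 RNA differed between the libraries. In control IgG neutrophils made up 65.6% of cells and held 73.1% of Il1b UMIs, 75.04% of Il1a, 67.7% of Il1rn, 90.6% of Il1r2, 86.6% of Il1rap and 74.8% of Nlrp3, but 7.19% of Il1r1. In anti-CD3L1 they made up 4.46% of cells and held 6.13% of Il1b, 2.79% of Il1rn and still 25.5% of Il1r2. Monocytes and macrophages held 47.3% and 24.9% of Il1b there. Monocytes, 29.9% of cells, also held 24.6% of Il1r2, and conventional dendritic cells, 4.84% of cells, held 16.1% of it. Over all cells Il1b stood at 53.2 UMIs per cell in control IgG and 13.9 in anti-CD3L1. With the control IgG levels in each class and the anti-CD3L1 mix of classes it came to 36.9 UMIs per cell, and with the anti-CD3L1 levels and the control IgG mix to 17.6. For Il1r2 the same 4 values were 2.50, 0.494, 0.824 and 1.98. For Il1rn they were 8.36, 5.06, 7.33 and 3.84. These values are UMIs per cell without regard to depth, and the anti-CD3L1 cells were shallower within the main classes. Median UMIs in control IgG and anti-CD3L1 were 4621 and 2346 in neutrophils, 12439 and 7951 in monocytes, and 14298 and 10072 in macrophages. The part of depth in the values with exchanged levels was not tested.

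**Figure D5:**
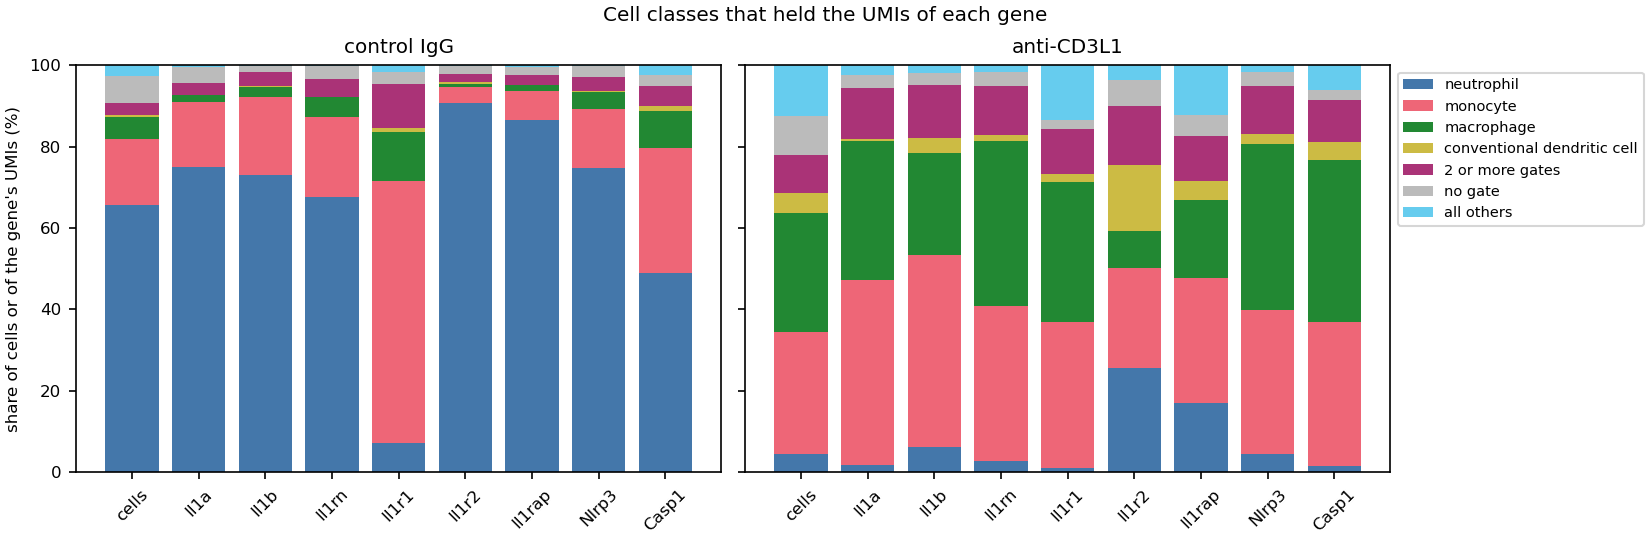
Share (percent) of all cells and of the UMIs of each gene that lay in each class, in control IgG (left) and anti-CD3L1 (right). Neutrophils, 65.6% of control IgG cells, held 90.6% of Il1r2 UMIs and 7.19% of Il1r1 UMIs there, and in anti-CD3L1, at 4.46% of cells, 25.5% of Il1r2 UMIs.

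The wider pathway was read from a list of 45 genes. Counts past 2-fold are read beside the shares of all genes given above. In neutrophils 27 of the 45 were measured, 3 at least 2-fold higher in anti-CD3L1 and 4 at least 2-fold lower, with a median log2 ratio of -0.038 beside 0.50 over all genes. With median-of-ratios scaling 0 were at least 2-fold higher, beside 8.13% of all genes, and 9 were at least 2-fold lower, beside 6.84%. These 9 were Irak3, Cxcl2, Ptgs2, Ccl3, Il1f9, Mefv, Casp4, Nfkbia and Zfp36. In monocytes 29 were measured, 0 higher and 3 lower, with a median of 0.043 beside 0.12. In macrophages 29 were measured, 0 higher and 1 lower, with a median of -0.22 beside -0.01. Irak3, which encodes an inhibitor of IL-1 receptor and Toll-like receptor signaling, was at least 2-fold lower in all 3 classes. It went from 649 to 302 CPM in neutrophils (log2 ratio -1.10), from 244 to 87.0 CPM in monocytes (-1.49) and from 149 to 59.5 CPM in macrophages (-1.33). Ptgs2, the inducible cyclooxygenase and a target of IL-1, was at least 2-fold lower in neutrophils, 615 to 216 CPM (-1.51), and in monocytes, 404 to 198 CPM (-1.03). In macrophages it went from 113 to 76.8 CPM (-0.56).

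Among the other ligands, Il1f9, listed under that symbol for IL-36γ, was higher in neutrophils than in monocytes. It was at 1225 CPM in control IgG and 674 CPM in anti-CD3L1 neutrophils (log2 ratio -0.86), and at 42.3 CPM and 6.12 CPM in monocytes. Neutrophil markers in monocytes stood at 2.71% and 0.571% of their level in neutrophils. The part of neutrophil RNA in the monocyte values of Il1f9 was not tested. Il18, another cytokine cut by caspase-1, was highest in monocytes, at 87.7 CPM and 63.4 CPM (-0.47). Il33 was at 0.743 CPM and 2.625 CPM over all cells. The receptor of IL-33, Il1rl1, was read in innate lymphoid cells, at 311 CPM and 259 CPM, and is one of the genes that led that class. Among the genes of inflammasomes, Pycard, the adaptor between NLRP3 and caspase-1, was at 131 CPM and 129 CPM in monocytes and at 22.7 CPM and 45.7 CPM in neutrophils. Nek7 and P2rx7, which act upstream of NLRP3, were likewise at least 2-fold higher in anti-CD3L1 neutrophils, at 15.0 and 31.7 CPM and at 95.5 and 213 CPM, beside the 21.2% of all genes that were, and none of the 3 passed 2-fold with median-of-ratios scaling. Casp4 was at 717 CPM and 395 CPM in neutrophils. Of 10 genes induced by IL-1, 9 were measured in each of these classes. In neutrophils their median log2 ratio was -0.57 beside 0.50 over all genes. There 3 were at least 2-fold lower, namely Cxcl2, Ptgs2 and Ccl3, at -1.19, -1.51 and -1.92. The median was 0.061 beside 0.12 in monocytes and -0.03 beside -0.01 in macrophages. The chemokine Cxcl2 was at 7557 and 7999 CPM in monocytes and at 4858 and 6032 CPM in macrophages.

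Over 14 points, the 7 classes with at least 20 cells in each library, the genes most like Il1b by Pearson correlation of log2(CPM + 1) among 5670 genes were Lilrb4a (0.97), Fam114a1 (0.97) and Sirpb1b (0.96). For Il1rn they included Cd14 and Nlrp3 (each 0.98), for Nlrp3 they included Arg2 and Rab9 (each 0.98), and for Il1r2 they were Mctp1 (0.94), Gm26535 (0.93) and Nod2 (0.91). Among the IL-1 genes themselves, Il1rn and Nlrp3 were most alike (0.98), then Il1b and Nlrp3 (0.95), while Il1r1 and Il1rap had -0.083. The points share their libraries and include classes that differ in depth, and these values describe the pattern over classes only.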

How the data were processed

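The authors deposited UMI counts per mouse gene and barcode for all barcodes, 1 library for each group, made with Cell Ranger 7.1.0. The submitters' processing notes name GRCm39 and Seurat 5.1.0. A deposited table of the authors' own macrophage comparison (fold changes and p-values) was not used. Everything else was computed from the counts with Python 3.11.15, numpy 2.4.6, scipy 1.17.1, pandas 2.3.3, scikit-learn 1.9.0, leidenalg 0.10.2 and matplotlib 3.10.9.

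The libraries held 74850604 (control IgG) and 108246719 (anti-CD3L1) UMIs. Barcodes with at least 500 UMIs, over 200 and under 6000 genes and under 5% mitochondrial UMIs were kept. The study's methods state the same limits on genes and mitochondrial UMIs. No doublet caller was run, and barcodes that passed the gates of more than 1 class were left out. A gate asked for 40% of a marker list and a share less than 10 points below the highest share of the cell. A lead over lists that fell short of 40% was not asked for. This rule was set after the data were seen, and S100a8, S100a9 and Apoe were kept out of the gates because most NK cells of a library held them. Of the classed cells, 65 and 11 neutrophils, 232 and 689 monocytes and 101 and 635 macrophages (control IgG and anti-CD3L1) led the next list by under 20 points. Clusters, made without the IL-1 genes and the pathway list, used 2000 variable genes, 30 principal components, 20 neighbors and a resolution of 0.6.

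Each group was a single library, so nothing was tested across samples. UMIs were summed per class. Intervals are at 95%, cover counting error only and treat UMIs as independent. Shares of cells were taken after thinning to 1000 UMIs. The ratio step was tested before use on simulated macrophage counts with Poisson error only. These held no spread between cells or tumors and no free RNA, so the test covers counting error alone. Named genes are the 8 members, the pathway genes past 2-fold in the same direction in at least 2 of neutrophils, monocytes and macrophages, and the 3 genes most like Il1b, Il1rn, Il1r2 and Nlrp3 over classes, among genes of at least 50 CPM. A result that this rule gives is not reported here. Other pathway genes named were chosen after their values were seen. The members and lists were chosen with earlier results of these data known. Coordinates are of GENCODE M21 (GRCm38), which held 8 of 8 gene identifiers, and promoters are from RefSeq (GRCm38.p6), which matched 8 of 8 with 12 starts. The 4 Il36 symbols of the list are given in the files as Il1f5, Il1f6, Il1f8 and Il1f9. Alternatives changed the cell filter, the class rule, the scaling, the subtraction of the NK cell level, the depth and the minimum level.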

Additional observations from a re-analysis of the deposited data

Results flagged for a closer look

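In 7 classes, the ratio between the libraries took opposite signs with counting intervals on either side of 0 for 6 of the 8 genes. With 1 library per group the difference between classes was not tested. Il1a had a log2 ratio of -2.46 in neutrophils, -0.54 in monocytes and -2.20 in innate lymphoid cells but 0.74 in macrophages and 2.29 in plasmacytoid dendritic cells, where control IgG held 2 Il1a UMIs. Il1b had -0.82 in neutrophils, -0.93 in monocytes, -0.59 in macrophages, -0.20 in conventional dendritic cells and -0.86 in innate lymphoid cells but 1.92 in plasmacytoid dendritic cells. In these last, control IgG held 36 Il1b UMIs in 22 cells, and 95.9% of the anti-CD3L1 UMIs lay in the tenth of cells that held most. Without thinning, 68.2% of the control IgG and 26.3% of the anti-CD3L1 plasmacytoid dendritic cells held an Il1b UMI, the opposite direction. Il1rn had -0.63 in neutrophils and -0.075 in monocytes but 0.37 in macrophages. Il1r2 had 0.53 in neutrophils but -0.59 in conventional dendritic cells, 45 of which were in control IgG, and -1.29 in innate lymphoid cells. Il1rap had -0.23 in neutrophils, -0.76 in monocytes and -0.86 in macrophages but 0.79 in NK cells. Nlrp3 had -0.32 in neutrophils and -0.66 in innate lymphoid cells but 0.073 in monocytes, 0.39 in macrophages and 0.72 in plasmacytoid dendritic cells. The control IgG plasmacytoid dendritic cells held 18 Nlrp3 UMIs. Relative to the median gene the monocyte value of Nlrp3 turned to -0.047, and in UMIs per cell the macrophage values of Il1rn and Nlrp3 turned to -0.11 and -0.087 and the neutrophil value of Il1r2 to -0.29. The macrophage value of Il1a was 0.26 in UMIs per cell and kept its sign. Of the innate lymphoid class, 22 of 47 control IgG and 117 of 264 anti-CD3L1 cells lay in the innate lymphoid cluster. Depth per cell, the mix of clusters in each class and the level of free neutrophil RNA differ between the libraries along with the treatment, and their parts in these values cannot be told apart.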

How the results depend on the processing

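No paired analysis was possible because each group was 1 library. Over 12 to 14 alternatives, Il1b stayed lower in anti-CD3L1 in neutrophils (-1.64 to -0.65, reported -0.82), monocytes (-1.52 to -0.73, reported -0.93) and macrophages (-1.07 to -0.58, reported -0.59), while Il1rn in macrophages (reported 0.37) and Il1r2 in neutrophils (reported 0.53) each turned once, in UMIs per cell. All values are log2 ratios, and the cause of the moves was not tested.

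With clusters in place of gates, Il1b was -0.70 in neutrophils, -0.73 in monocytes and -0.79 in macrophages, Il1rn in macrophages 0.30 and Il1r2 in neutrophils 0.78. In UMIs per cell these were, in the same order, -1.64, -1.52, -1.07, -0.11 and -0.29, and as means of per-cell shares -0.65, -0.98, -0.63, 0.28 and 0.81. With median-of-ratios scaling Il1b was -1.32 in neutrophils and -1.04 in monocytes, Il1r2 in neutrophils 0.029, and the neutrophil genes past 2-fold 286 lower and 340 higher, in place of 125 and 888. With cells of more than 1 gate put in their top class, Il1b was -0.87 in neutrophils and -0.95 in monocytes, and Il1r2 in neutrophils 0.43. Asking for 1 more marker gave -0.68 for Il1b and 0.29 for Il1rn in macrophages. With the NK cell level subtracted, Il1b was -0.86, -0.95 and -0.63 in neutrophils, monocytes and macrophages. That level does not measure free neutrophil RNA, since neutrophil markers go with 5.45 CPM of the 84.8 CPM in anti-CD3L1 NK cells. The part of free RNA was not tested by this step. Without the top 1% of cells Il1b was -0.96 in monocytes and -0.64 in macrophages. The share of cells with an Il1b UMI differed by -8.42 points in neutrophils and -21.2 in monocytes after thinning to 500 UMIs (reported -5.04 and -16.8), and without thinning by -11.9 in monocytes and -16.4 in macrophages (reported -16.8 and -10.4). The counts past 2-fold with median-of-ratios scaling, over all genes and over the pathway list, were added after seeing the data. Of the other alternatives so added, all markers in the gates gave -0.87 for Il1b in neutrophils, and monocytes without the cluster led by Lyl1 gave -0.85 and without the cluster led by Ly6i -1.32.

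Depth limits the 503 anti-CD3L1 neutrophils, the 45 control IgG conventional dendritic cells and all shares of Il1r1 and Casp1. With 1 library a group, the spread between tumors could not be measured.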
